A study of Homo sapiens with 6 samples.

Results

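The Eph receptors and their ephrin ligands were followed in the human colorectal carcinoma cell line HCT116, which is established in culture and has wild-type p53. Their genes were taken by symbol from the count table: 10 genes of 27942, namely the receptors EPHA1, EPHA2, EPHA4, EPHB2, EPHB3 and EPHB4 and the ligands EFNA1, EFNA4, EFNB1 and EFNB2. All 10 passed the filter on low counts, which kept 13727 genes. RNA was sequenced from 3 samples of cells exposed to 0.5 µM oxaliplatin for 24 h (OXA) and from 3 samples of non-treated cells (NT). Both groups were the same unmodified cell line, grown in RPMI medium with bovine serum, and the polyadenylated RNA was made into strand-specific libraries. The labels number the samples from 1 to 3 in each group without saying what a number stands for, so the tests measure the spread between these samples, which may be technical. Oxaliplatin is a platinum drug that binds DNA and is given against colon cancer.

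Eph receptors are the largest family of receptor tyrosine kinases, and their ligands are themselves held on the membrane of the neighbouring cell. Ephrin-A ligands carry a lipid anchor and mainly bind EphA receptors, whereas ephrin-B ligands cross the membrane and mainly bind EphB receptors. Contact sends a forward signal into the cell with the receptor and a reverse signal into the cell with the ligand, and usually leads to repulsion or sorting of cells. In the intestine, EphB2 and EphB3 are made by WNT-responsive cells at the crypt base and ephrin-B1 and ephrin-B2 by the differentiated cells above them, which keeps the compartments apart.

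The promoters of EPHA2 and EFNB1 are shown because these were the members with the largest differences between OXA and NT. Each line holds the 250 bases before the RefSeq start of the gene on GRCh38.p14, read along the gene, at chr1:16156070-16156319 on the minus strand for EPHA2 and at chrX:68828771-68829020 on the plus strand for EFNB1. Capitals mark matches, on either strand, to the letters CATTCC (bound by TEAD factors), CTTTGA (bound by TCF and LEF factors) and GGGCGG (the GC box bound by SP1).
EPHA2 promoter: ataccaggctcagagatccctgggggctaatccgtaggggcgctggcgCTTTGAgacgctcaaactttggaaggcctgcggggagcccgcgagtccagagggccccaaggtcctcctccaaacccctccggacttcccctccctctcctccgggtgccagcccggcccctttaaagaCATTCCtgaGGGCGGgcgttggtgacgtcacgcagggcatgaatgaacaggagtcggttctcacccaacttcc
EFNB1 promoter: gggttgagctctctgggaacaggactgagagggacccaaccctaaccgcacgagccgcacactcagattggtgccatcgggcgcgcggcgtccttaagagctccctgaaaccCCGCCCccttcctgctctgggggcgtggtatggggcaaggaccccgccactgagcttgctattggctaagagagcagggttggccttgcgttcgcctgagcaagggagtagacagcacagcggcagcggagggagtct

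The EPHA2 window held 1 match to each of the 3 motifs, and the EFNB1 window held a single GC box. The GC box occurred in the window of all 10 genes, against 42.6% of the 35116 RefSeq promoters of the same length. Those promoters had a median GC content of 58.0%. The windows of the 10 genes lay above it, from 58.4% in EFNA4 to 84.8% in EPHB2, except for a window of EPHA4 with 43.2%. The part of GC content in this difference was not tested. EPHB2 and EPHA4 had more than 1 window, and a match in any of them was counted. CATTCC and CTTTGA occurred in that of EPHA2 only, against 11.9% and 11.2% of the promoters. The p53 decamer motif and the AP-1 letters TGANTCA were found in none of the 10, against 5.57% and 6.57%. With shares this low, a search of 10 genes cannot tell a lack of these motifs from the background. Sequence outside the windows, such as introns, was not searched. Overlapping matches were counted separately, and a match describes the letters and not the binding of a factor.

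The 2 ephrin-B ligands end in nearly the same cytoplasmic tail, and their last 33 codons with the stop codon are shown to make clear how far the counts of the 2 genes could be told apart. Both stretches lie in the last exon of the GENCODE 44 canonical transcript, in coding sequence, at chrX:68840553-68840654 (plus strand, EFNB1) and chr13:106493040-106493141 (minus strand, EFNB2) on GRCh38. Capitals mark the bases that differ.
EFNB1 tail: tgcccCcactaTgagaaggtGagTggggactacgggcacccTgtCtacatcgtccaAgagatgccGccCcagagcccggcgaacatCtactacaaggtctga
EFNB2 tail: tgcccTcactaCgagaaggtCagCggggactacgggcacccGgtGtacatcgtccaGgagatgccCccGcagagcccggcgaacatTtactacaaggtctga

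Of the 102 bases 92 were identical (90.2%), and the 10 that differed changed 10 codons but no amino acid. The longest run of bases that EFNB1 shared with EFNB2 anywhere in the canonical transcripts was 17, against reads of 100 nt. Over all 231 pairs among the 22 Eph and ephrin genes the longest shared run was 59 bases, between EPHA2 and EPHB2, which is shorter than a read.

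The libraries held between 32979521 and 40967880 counts. CDKN1A, the p53 target that encodes the cell cycle inhibitor p21, rose from 5143 ± 907 normalized counts (mean ± SD, n = 3) in NT to 39110 ± 2895 in OXA (edgeR adjusted p = 0.000445), with no overlap. Epithelial markers summed to between 1966 and 2650 CPM (counts scaled to the same total in each library) in NT and between 2800 and 3141 in OXA, so the ranges did not overlap, and their part in the results was not tested. Of the 4 epithelial markers KRT8 and KRT18 had log2 fold changes of 0.47 and 0.31 and EPCAM and CDH1 of -0.04 and -0.20, with none called by edgeR without the block. With it KRT8 (edgeR adjusted p = 0.0271) and KRT18 (0.0184) were called higher and CDH1 (0.0408) lower. The 4 leukocyte markers reached at most 0.227 CPM together. The 4 fibroblast markers summed to between 3.07 and 7.89 CPM and the 3 endothelial markers to between 0.485 and 0.792. Nearly all of the fibroblast sum was COL1A1, with raw counts of 107 to 273. COL1A2 had at most 2 in a library, and the other 2 fibroblast markers, DCN and LUM, had 0 in every library.

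NT library 1 stood apart from the other 5 libraries in a way that followed GC content. For the 1482 genes with 60 to 65% GC its median deviation from the mean of the 6 libraries was -0.62 on the log2 scale, against 0.23 in NT library 2 and 0.08 in NT library 3, and -0.08, 0.32 and 0.08 in OXA libraries 1 to 3. Of the 10 genes 9 lay above the median GC content of the tested genes, 48.2%, with a range over the 10 from 44.8% in EPHA4 to 62.2% in EPHB3. The fold changes of the 10 genes are therefore given also from a fit that blocks on the replicate number and removes library trends along GC content and along transcript length, called the GC-adjusted fit, and without NT library 1 where that changes a call.

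**Figure D1:**
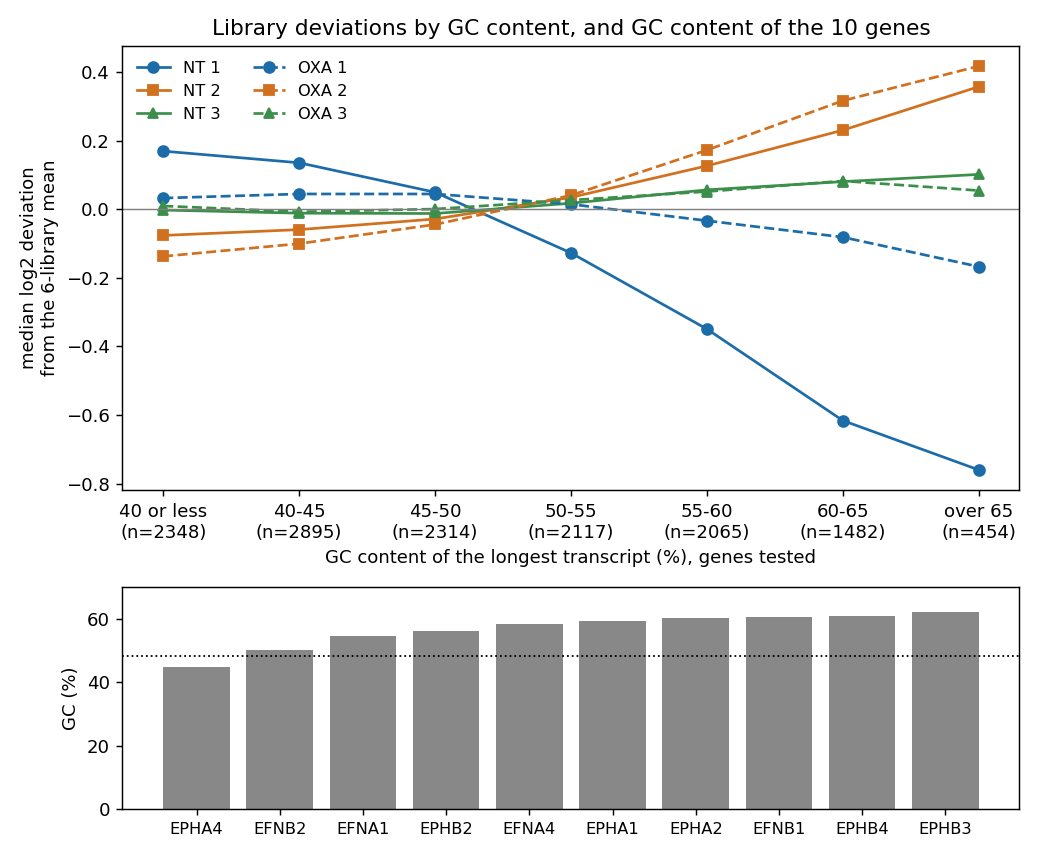
Upper panel, the median log2 deviation of each library from the mean of the 6 libraries (y axis) for tested genes binned by the GC content of their longest transcript (x axis, %), with solid lines for NT and dashed lines for OXA. NT library 1 reaches -0.62 at 60 to 65% GC, and the lower panel gives the GC content of the 10 genes in percent, with the median of 48.2% as a dotted line.

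EPHA2 mRNA rose about 2-fold with oxaliplatin, was the only one of the 10 genes called by edgeR's quasi-likelihood test without a block, and none was called lower. Among all genes tested 2.78% were called higher and 2.29% lower at an adjusted p under 0.05. An unadjusted p under 0.05 was reached by 2 of the 10, both higher in OXA, against 21.7% of all genes in either direction. EFNB1 showed a fold change of the same size but its adjusted p stayed just above the threshold in this fit (edgeR, 0.0539). It passed in the fit that blocks on the replicate number (edgeR adjusted p = 0.00711). In 4 of the 10 genes (EPHA2, EPHA4, EPHB3 and EFNB1) all 3 OXA libraries exceeded the highest NT library, and in 0 they lay below the lowest, against 14.5% and 14.4% of all genes tested. The log2 fold changes, OXA over NT, had a median of 0.22 over the 10 genes and of 0.02 over all genes tested, with 7 of the 10 above 0.

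**Figure D2:**
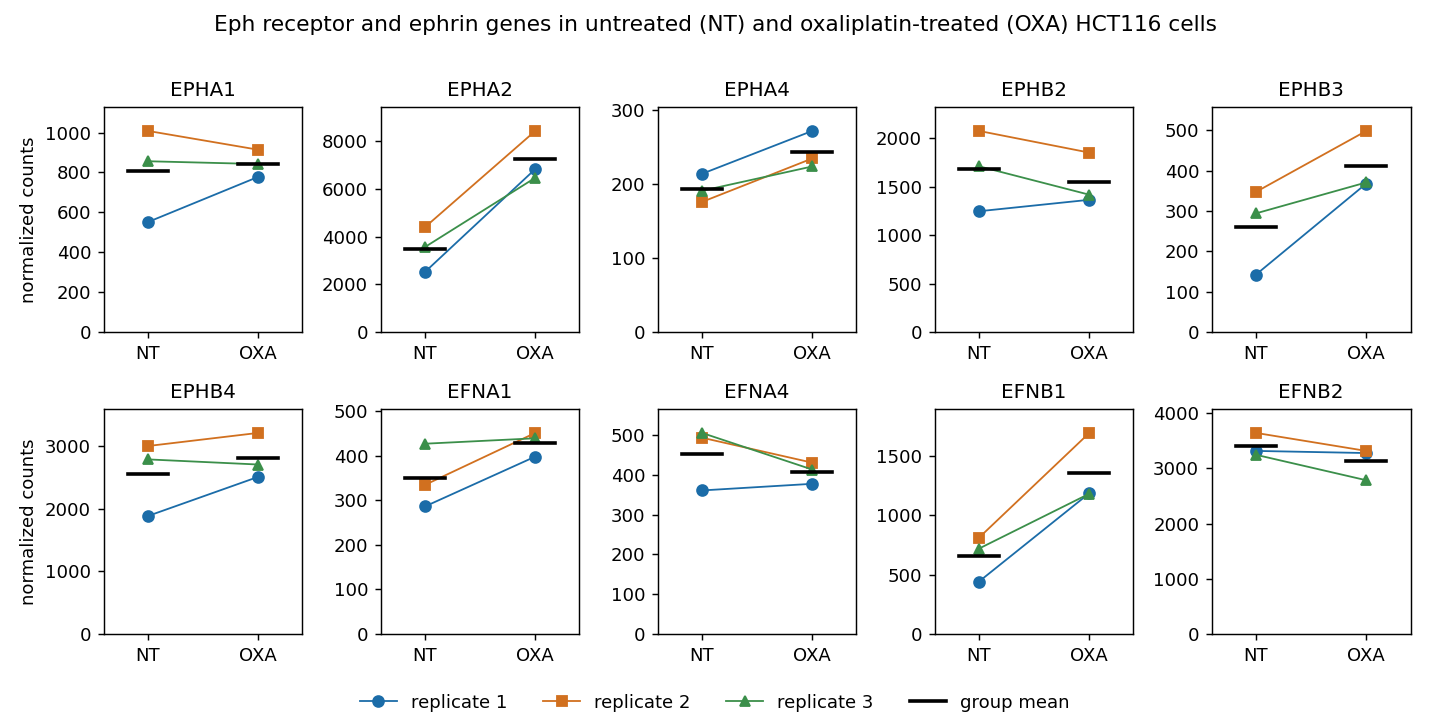
TMM-normalized counts (y axis, from 0) of the 10 genes in NT and OXA, with 1 symbol and colour per replicate number, lines joining libraries of the same number and black bars for the group means (n = 3). EPHA2 and EFNB1 are higher in all 3 OXA libraries than in any NT library, while EPHA1, EPHB2, EPHB4, EFNA1, EFNA4 and EFNB2 overlap.

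Among the EphA receptors, EPHA2 (ENSG00000142627, chromosome 1, 16124337 to 16156069, minus strand) is the receptor best known from epithelial tumours, where it binds ephrin-A1. It had 2516, 4397 and 3565 normalized counts in NT libraries 1 to 3 and 6841, 8442 and 6475 in OXA libraries 1 to 3. The lowest OXA value lay well above the highest NT value, and NT library 1 was the lowest of all. Means were 3492 ± 943 and 7253 ± 1046, a 2.08-fold difference (95% interval 1.5 to 2.88, or 1.05 ± 0.20 as log2 fold change ± standard error, with an edgeR adjusted p of 0.0298). Between libraries of the same number EPHA2 was 2.72, 1.92 and 1.82 times higher in OXA. With the replicate block the edgeR adjusted p was 0.00465, and in the GC-adjusted fit the log2 fold change was 0.90 (edgeR adjusted p = 2.19e-06). Without NT library 1 the log2 fold change was 0.87 with an edgeR adjusted p of 0.0071, whereas leaving out NT library 3 or any single OXA library raised the adjusted p to between 0.0911 and 0.118.

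EPHA4 (ENSG00000116106, chromosome 2, 221418027 to 221574202, minus strand), a receptor that binds ephrins of both classes, was the weakest expressed of the 10. Its NT libraries had 214, 176 and 191 normalized counts and its OXA libraries 272, 234 and 224. The groups did not overlap, with means of 193 ± 19.1 and 243 ± 25.15, and the difference of 0.33 on the log2 scale was not called (95% interval -0.03 to 0.69, edgeR adjusted p = 0.271). It was 0.38 in the GC-adjusted fit (edgeR adjusted p = 0.0145), in which 22.9% of genes were called higher and 21.5% lower. With the authors' gene-specific factors in place of TMM the sign of EPHA4 turned, to -0.20.

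EPHA1 (ENSG00000146904, chromosome 7, 143390289 to 143408856, minus strand), the receptor with which the family was first described, had 551, 1008 and 856 normalized counts in NT and 778, 914 and 842 in OXA. All OXA values fell between the lowest and the highest NT value. The log2 fold change was 0.07 (95% interval -0.42 to 0.56, edgeR adjusted p = 0.887) and took the other sign without NT library 1, at -0.14, and in the GC-adjusted fit, at -0.07 (edgeR adjusted p = 0.415).

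Among the EphB receptors, EPHB3 (ENSG00000182580, chromosome 3, 184561785 to 184582408, plus strand), one of the crypt-base receptors, had 142, 347 and 294 normalized counts in NT and 368, 498 and 371 in OXA. The groups did not overlap, and NT library 1 lay far below the rest. The means of 261 ± 106 and 412 ± 74.5 differed by 0.66 on the log2 scale (95% interval -0.06 to 1.38, edgeR adjusted p = 0.273). The block left it just above the threshold (edgeR adjusted p = 0.0557), and in the GC-adjusted fit it was 0.52 (edgeR adjusted p = 0.0037). With the authors' gene-specific factors in place of TMM it was 0.888 without the block (edgeR adjusted p = 0.0953). With these factors and the block it was 0.893 and EPHB3 was called higher (edgeR adjusted p = 0.0115). Without NT library 1 the log2 fold change was 0.36, with an edgeR adjusted p of 0.23.

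EPHB2 (ENSG00000133216, chromosome 1, 22710839 to 22921500, plus strand), the other crypt-base receptor, had 1246, 2075 and 1710.2 normalized counts in NT and 1364, 1851 and 1417 in OXA, with full overlap. Its log2 fold change was -0.12 (95% interval -0.59 to 0.35, edgeR adjusted p = 0.785), and -0.21 in the GC-adjusted fit (edgeR adjusted p = 0.00381). EPHB4 (ENSG00000196411, chromosome 7, 100802565 to 100827523, minus strand), the receptor of ephrin-B2 that marks veins in blood vessels, had 1885, 3003 and 2789.8 normalized counts in NT and 2511, 3213 and 2708 in OXA. The groups overlapped here as well (log2 fold change 0.13, 95% interval -0.29 to 0.56, edgeR adjusted p = 0.724), and the GC-adjusted value was -0.02.

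Among the ligands, EFNB1 (ENSG00000090776, chromosome X, 68829021 to 68842160, plus strand) encodes ephrin-B1, a ligand of EphB2 and EphB3. It had 441, 809.6 and 718 normalized counts in NT and 1185, 1692 and 1181 in OXA. Every OXA library exceeded every NT library, and NT library 1 was again the lowest. The means of 656 ± 192 and 1352.5 ± 294 differed 2.06-fold (95% interval 1.39 to 3.05, or 1.04 ± 0.24 as log2 fold change ± standard error), with a p of 0.00296 before and an edgeR adjusted p of 0.0539 after adjustment over all genes. The adjusted p passed the threshold with the replicate block (edgeR, 0.00711), in the GC-adjusted fit (log2 fold change 0.88, edgeR adjusted p = 3.86e-05), and with DESeq2 (adjusted p = 0.000294). Without NT library 1 the log2 fold change was 0.82 (edgeR adjusted p = 0.0196), and leaving out any other library gave edgeR adjusted p values between 0.0742 and 0.191.

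EFNB2 (ENSG00000125266, chromosome 13, 106489745 to 106535662, minus strand), which encodes ephrin-B2, was among the most abundant of the 10 per length in NT. Its libraries had 3317, 3644 and 3247 normalized counts in NT and 3278, 3317 and 2785 in OXA, so the groups overlapped, and the spread in NT was the smallest of the 10 genes in percent of the mean (6.22%). Its log2 fold change was -0.12 (95% interval -0.36 to 0.11, edgeR adjusted p = 0.543), an interval that lies wholly below that of EFNB1 (0.48 to 1.61). In the GC-adjusted fit it was -0.13 (edgeR adjusted p = 0.025). An antisense lncRNA covers 1822 bases of its exons (36.4%) on the other strand. The library kit keeps strand, but the strand setting of the counting is not given in the sources used here, so reads of the antisense gene could be included.

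EFNA1 (ENSG00000169242, chromosome 1, 155127876 to 155134899, plus strand), which encodes the main ligand of EphA2, had 286, 335 and 427 normalized counts in NT and 398, 451 and 439 in OXA. NT library 3 lay within the OXA range, and the log2 fold change was 0.30 (95% interval -0.10 to 0.69, edgeR adjusted p = 0.366), and 0.15 in the GC-adjusted fit (edgeR adjusted p = 0.219). EFNA4 (ENSG00000243364, chromosome 1, 155063737 to 155069553, plus strand), another lipid-anchored ligand from the same cluster of ephrin-A genes, had 361, 494 and 506 normalized counts in NT and 378, 431 and 413 in OXA. Its log2 fold change was -0.16 (95% interval -0.53 to 0.22, edgeR adjusted p = 0.635), and -0.39 in the GC-adjusted fit (edgeR adjusted p = 0.0025). EFNA4 shares 189 exon bases (15%) with the read-through gene EFNA4-EFNA3 on the same strand, so its counts are uncertain to that extent.

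**Figure D3:**
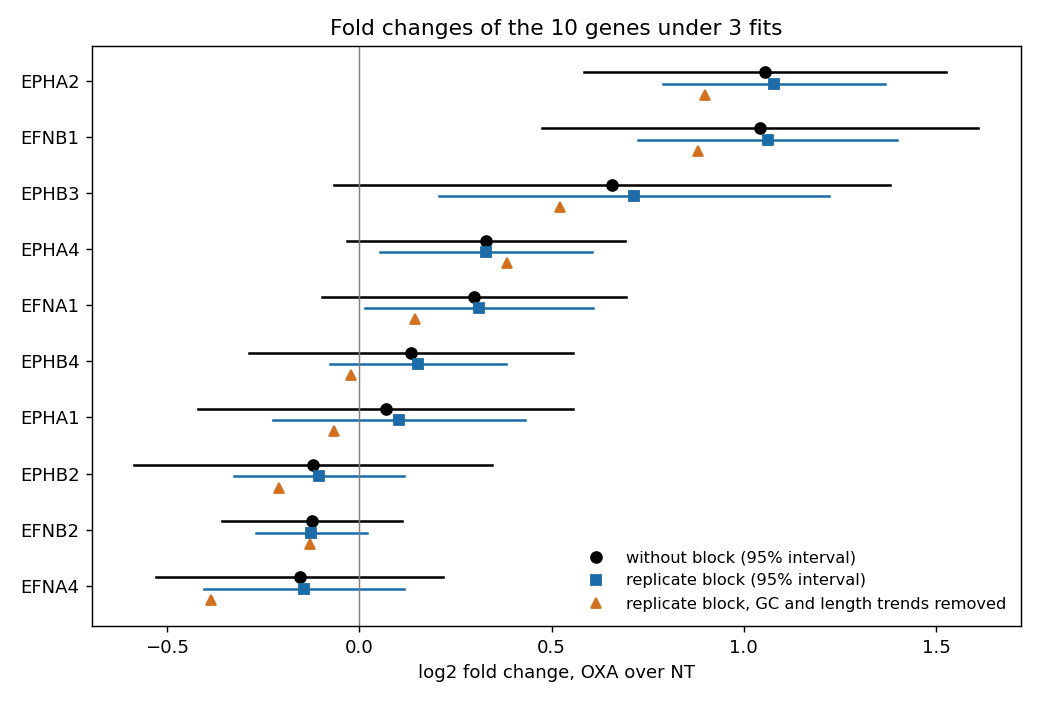
Log2 fold changes, OXA over NT (x axis), of the 10 genes (y axis) from edgeR without a block (black, with 95% interval), with the replicate block (blue, with 95% interval) and with GC and length trends removed as well (orange, no interval drawn). The estimates of EPHA2 and EFNB1 lie between 0.88 and 1.08 in all 3 fits, and those of the other 8 genes between -0.39 and 0.72. The interval of EPHB3 includes the EPHA2 and EFNB1 estimates, both without the block (-0.06 to 1.38) and with it (0.21 to 1.22).

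With the replicate block 2 of the 10 genes were called higher (EPHA2 and EFNB1) and 0 lower, against 12.1% and 10.9% of all genes, and in the GC-adjusted fit 4 were higher (EPHA2, EPHA4, EPHB3 and EFNB1) and 3 lower (EPHB2, EFNA4 and EFNB2). Since the GC-adjusted fit called 44.4% of all genes, 7 of 10 is to be read against that share. EPHA2 and EFNB1 kept most of their size in it, with log2 fold changes of 0.90 and 0.88 in place of 1.05 and 1.04.

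Levels were then compared between genes, per length, as CPM per kb of exon sequence. In NT, EPHA2 (23.4 ± 6.33) and EFNB2 (18.9 ± 1.18) were highest and overlapped each other. EPHB4 (11.1 ± 2.56) and EFNA4 (10.0 ± 1.78) followed and overlapped, apart from the genes above and below them. EFNB1 (5.52 ± 1.62), EPHA1 (4.76 ± 1.38), EFNA1 (4.48 ± 0.919) and EPHB2 (3.72 ± 0.923) formed a middle group in which each overlapped its neighbour, and EPHB3 (1.60 ± 0.653) and EPHA4 (0.711 ± 0.0704) were each separate below it.

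In OXA, EPHA2 stood alone at the top with 45.9, 56.7 and 43.5 CPM per kb, against 18.2, 18.4 and 15.5 for EFNB2 in the same libraries. EFNB1 (11.4 ± 2.48) came to lie beside EPHB4 (12.1 ± 1.56), which it overlapped, and above EFNA4 (9.0 ± 0.599), which it did not. The ranks of EFNA1 (5.52 ± 0.358) and EPHA1 (5.0 ± 0.402) changed places but these 2 overlapped in both groups. EPHB2 (3.43 ± 0.594) and EPHB3 (2.53 ± 0.457), separate in NT, overlapped in OXA, and EPHA4 (0.895 ± 0.0925) was again lowest.

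The make-up of the receptor mRNA shifted towards EPHA2. Of the summed level per kb of all Eph receptors, EPHA2 held 49.2, 50.1 and 47.4% in NT libraries 1 to 3 and 66.3, 65.5 and 63.5% in OXA libraries 1 to 3. NT library 1 was not set apart in this share, which is taken within a library. It was set apart in those of EPHA4 (2.29%, against 1.10 and 1.39% in NT libraries 2 and 3) and EPHB3 (2.54%, against 3.62 and 3.57%). The means of 48.9% ± 1.39 and 65.1% ± 1.42 differed by 16.2 percentage points, and with 3 libraries against 3 the exact two-sided permutation test gave p = 0.1, the smallest it can give (adjusted p = 0.167 over the shares of the 10 genes). EPHB4 went from 23.2% ± 1.03 to 16.3% ± 0.745 by the same measure, EPHA1 from 9.89% ± 0.337 to 6.73% ± 0.522 and EPHB2 from 7.80% ± 0.273 to 4.57% ± 0.19, in each case without overlap and with the same exact permutation p. Shares have a fixed total, so a higher share of EPHA2 lowers the others, and these falls are not separate results. The higher share of EPHA2 is likewise not separate from its fold change given above. The normalized counts of EPHB4, EPHA1 and EPHB2 overlapped between the groups (log2 fold changes 0.135, 0.069 and -0.12). The level summed over the receptors other than EPHA2 was 24.5 ± 6.25 CPM per kb in NT and 26.1 ± 3.40 in OXA, with overlap.

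Among the ligands the share of EFNB1 went from 8.32, 11.1 and 10.8% in NT to 18.1, 22.1 and 18.5% in OXA. The groups did not overlap, and the means were 10.1% ± 1.53 and 19.6% ± 2.24 (exact permutation p = 0.1, adjusted p = 0.167). EFNA4 went from 18.6% ± 1.16 to 15.7% ± 1.18 without overlap, whereas the ranges of EFNB2, 32.1 to 41.3% in NT and 28.6 to 33.01% in OXA, overlapped. NT library 1 was set apart in the share of EFNB2, with 41.3% against 33.1 and 32.1% in NT libraries 2 and 3. Here too a higher share of EFNB1 lowers the others and is not separate from the fold change of EFNB1. The normalized counts of EFNA4 overlapped between the groups (log2 fold change -0.155). The level summed over the ligands other than EFNB1 was 48.4 ± 6.90 CPM per kb in NT and 46.4 ± 3.28 in OXA. In bulk RNA, a change in the RNA per cell and a change in the share of cells that express a gene cannot be told apart.

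**Figure D4:**
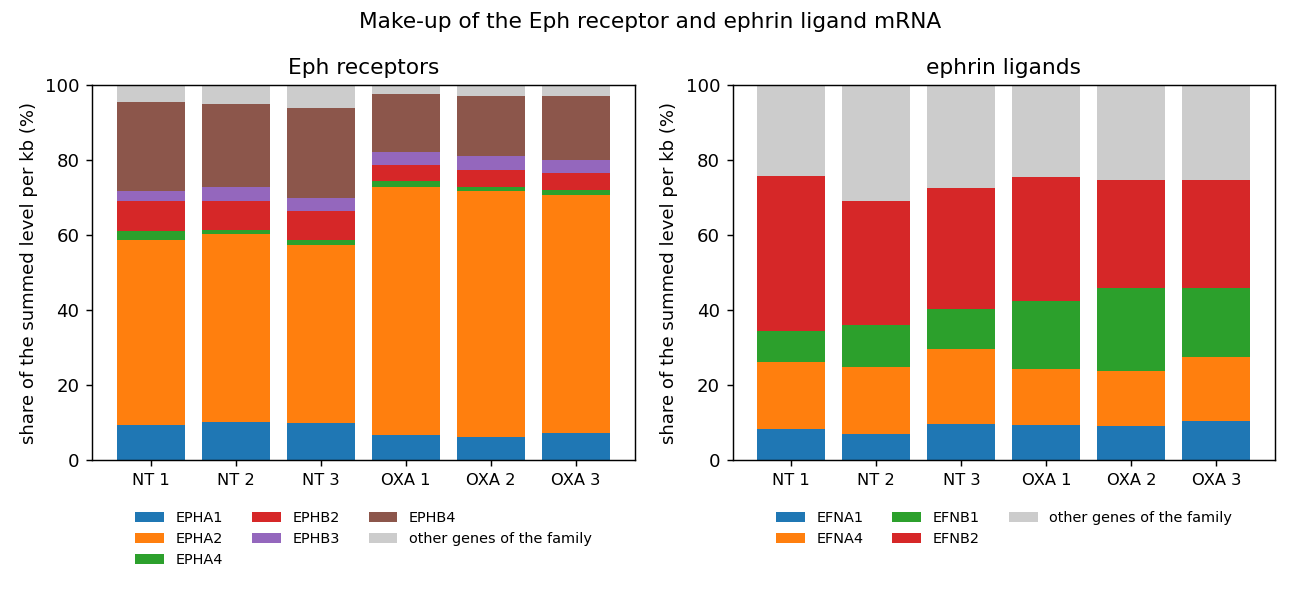
Stacked bars of the share (y axis, %, 0 to 100) that each gene holds in the summed level per kb of all Eph receptors (left) and all ephrin ligands (right), for each of the 6 libraries (x axis), with the other genes of the family in grey. EPHA2 goes from 47.4 to 50.1% in NT to 63.5 to 66.3% in OXA, and EFNB1 from 8.32 to 11.1% to 18.1 to 22.1%.

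The balance between ligands and the receptors they are known to bind was measured as the log2 ratio of their levels per kb within a library, for 9 pairs. EFNB1 over EPHB2 was 0.42, 0.56 and 0.67 in NT and 1.72, 1.79 and 1.66 in OXA, a difference of 1.17 that is large beside the spread in either group (SD 0.125 and 0.067). EFNA1 over EPHA2 and EFNA4 over EPHA2 moved the other way, by -0.77 and -1.22. EFNB1 over EPHB3 (0.33) and EFNB2 over EPHB3 (-0.87) also differed without overlap. In EFNB2 over EPHB3 NT library 1 was set apart, with 4.40 against 3.25 and 3.32 in NT libraries 2 and 3. Each of these 5 ratios had the smallest exact permutation p that 3 against 3 allows, 0.1, or 0.18 adjusted over the 9 pairs. Each contains EPHA2, EFNB1 or EPHB3, so these ratios are not separate from the differences of those genes given above. EFNB2 over EPHB4 overlapped between the groups (-0.28, exact permutation p = 0.3), but within each of the 3 same-numbered pairs it was lower in OXA, and the exact sign-flip permutation test over the pairs gave p = 0.25, the smallest that 3 pairs allow and the same as for the 5 ratios above. EFNA1 over EPHA1 (0.21, exact permutation p = 0.6 with 3 libraries against 3), EFNA1 over EPHA4 (-0.01) and EFNB2 over EPHB2 (-0.02) overlapped as well. These did not move one way in all 3 pairs.

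Of the other 12 genes of the family 6 passed the filter, and 0 of them were called by edgeR, DESeq2 or limma-voom. An unadjusted edgeR p under 0.05 was also reached by 0 of them, against 21.7% of all genes. Their median log2 fold change was -0.33. EPHA10 (-0.37, edgeR adjusted p = 0.507) and EPHB6 (-0.29, edgeR adjusted p = 0.655), both receptors without an active kinase, EFNA2 (-0.58, edgeR adjusted p = 0.325) and EPHB1 (-1.19, edgeR adjusted p = 0.468) had values below 0. EPHB1 rested on few reads, with raw counts of 13, 14 and 4 in the NT and of 10, 2 and 1 in the OXA libraries. EFNA3 (0.04, edgeR adjusted p = 0.923) was the one other ligand of high level, with 8.90, 14.9 and 12.3 CPM per kb in NT, and shares 43.9% of its exon bases with EFNA4-EFNA3, and EFNA5 had 0.16 (edgeR adjusted p = 0.801). In the GC-adjusted fit 4 of these 6, EPHA10, EPHB6, EFNA2 and EFNA3, were called lower, where 21.5% of all genes were. EFNA2 was also called lower without NT library 1, at -0.85 (edgeR adjusted p = 0.0354).

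The 6 genes that did not pass were at or near the detection limit. EPHA3, EPHA5 and EPHA6 had 0 counts in all 6 libraries, which allows up to 3 counts in a library, or 0.0732 to 0.091 CPM, for counting error only. EPHA7 had raw counts of 4, 3 and 2 in the NT and of 4, 0 and 3 in the OXA libraries, EPHA8 had 1, 5 and 4 against 3, 6 and 0, and EFNB3, the third ephrin-B gene, had 6, 7 and 4 against 1, 6 and 2.

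The proteins through which Eph receptors and ephrins act showed smaller differences in mRNA. Of 46 listed genes 42 passed the filter, and none was called by edgeR against 5.07% of all genes. An unadjusted edgeR p under 0.05 was reached by 2, against 21.7% of all genes. DESeq2 called 1 of them, and among all genes 609 higher and 578 lower. Values on the log2 scale ranged from -0.26 to 0.48 with a median of -0.02. For the roles described here, log2 fold changes above 0 were seen in 6 of 13 adaptors and phosphatases, 4 of 7 cytoplasmic kinases, 2 of 5 PDZ and reverse signalling proteins, 2 of 4 proteases and 1 of 6 small GTPases and effector kinases. Among all genes tested 7313 of 13727 lay above 0. With the replicate block 3 of the 42 were called higher and 2 lower, against 12.1% and 10.9% of all genes. SHC1, an adaptor of activated receptors, gave 0.40 on the log2 scale (edgeR adjusted p = 0.0975, with the block 0.0181). SRC, a kinase that acts in both forward and reverse signalling, had 0.44 (edgeR adjusted p = 0.234, with the block 0.0407). NGEF, which encodes ephexin-1, a protein that binds EphA receptors, had 0.48 (edgeR adjusted p = 0.274, with the block 0.0372). AFDN, the junction protein afadin that binds Eph receptors through its PDZ domain, had -0.26 (edgeR adjusted p = 0.162, with the block 0.0283), and TIAM1, a Rac exchange factor, had -0.25 (edgeR adjusted p = 0.511, with the block 0.0377).

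EPHA2 was set beside the other receptor tyrosine kinases. Of 44 listed, 28 passed the filter, and 1 was called by edgeR, against 5.07% of all genes. This was AXL, which was higher in OXA by 0.92 ± 0.10 on the log2 scale (estimate ± standard error, edgeR adjusted p = 0.00489). The median over the 28 was -0.17, and 9 of them lay above 0, against 7313 of the 13727 genes tested. EPHB2 and EPHB3 are known targets of WNT signalling in the crypt. Of 13 other targets 10 passed the filter, and 2 were called by edgeR, against 5.07% of all genes. AXIN2, a feedback inhibitor of the pathway, was lower in OXA (log2 fold change -0.73, edgeR adjusted p = 0.00983). SOX9, a transcription factor of the crypt base, was higher (0.48, edgeR adjusted p = 0.024). Of the 6 fits that left out 1 library, 3 called AXIN2 and 1 called SOX9. An unadjusted edgeR p under 0.05 was reached by 6 of the 10, against 21.7% of all genes. Below 0 lay 8 of the 10, against 6414 of the 13727 genes tested. The median of the 10 was -0.23, while EPHB2 had -0.12 and EPHB3 0.66, neither of them called by edgeR without the block. In the GC-adjusted fit EPHB2 was called lower (edgeR adjusted p = 0.00381) and EPHB3 higher (0.0037), where 21.5% and 22.9% of all genes were. EPHB3 was also called higher with the block and the authors' factors (edgeR adjusted p = 0.0115).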

How the data were processed

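Paired 100-nt reads of 3 NT and 3 OXA libraries were mapped to GRCh38 with STAR, and the submitters' processing notes also name Trimmomatic, RSEM and DESeq2. The annotation and strand setting of the counting are not given in the sources used here. The authors deposited a raw count per gene and library, used here as deposited, and a normalized signal, the count times a factor that differed between genes, used as an alternative. Counts may be rounded estimates.

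Genes were filtered with filterByExpr (minimum count 10, minimum total 15), normalized by TMM and tested with edgeR 4.0.16 quasi-likelihood fits (R 4.3.3, limma 3.58.1), adjusted over all 13727 genes by Benjamini-Hochberg, with a threshold of 0.05. Normalized counts are scaled to the mean library. Per-length levels use union exon lengths from GENCODE 44. Intervals are 95%. Alternatives were RLE factors, no filter, DESeq2 1.42.0, limma-voom, the authors' factors, the replicate block, GC and length trends (splines, 5 degrees of freedom), other lengths and each library left out. The script was tested on simulated data. Of genes changed 2-fold, the fit without a block recovered 66 of 96 and the fit with it 67. With added differences between pairs, of a fixed size not taken from these data, these were 0 and 61 of 95.

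The deviations of same-numbered libraries from their group means went together (r = 0.711, 0.711 and 0.409, limit 0.1), and libraries of different numbers gave -0.60 to 0.15. Deviations from a mean cancel out within a group, so high values for same-numbered libraries force lower ones for the rest. The contrast between these values is therefore partly built in. The numbers come from the labels. The fit without a block leaves these shared deviations in its spread, so a gene that it does not call may still differ. Library pairs within a group differed with a chi-square per gene of 19.2 to 83.1, so none repeated another.

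The 10 genes, the other lists and the rules were chosen with earlier results of these data known. Named are the 10 genes, the detected other family genes, partners called with or without the block, CDKN1A, and other receptor tyrosine kinases and WNT targets called without it. The count for 1 group of partners is not reported here.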

Additional observations from a re-analysis of the deposited data

How the results depend on the processing

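The effect of depth on these results was not tested. Genes called higher and lower numbered 381 and 315, and 609 and 578 with DESeq2, 1664 and 1493 with the replicate block, 241 and 200 with the authors' factors, 1319 and 1167 with the block and the authors' factors, 3126 and 2943 with the block and GC and length trends removed, 1451 and 1433 with these trends removed without the block (added after seeing the data), and 66 to 623 and 19 to 571 without 1 library. Of the 10 genes, and of the whole family, 1 was called higher, 2 without the filter, with DESeq2 and with the block, 3 with the block and the authors' factors, 4 with the trends removed with or without the block, and 0 to 2 without 1 library (0 without NT library 3 or any of the OXA libraries, 2 without NT library 1). None of the 10 was called lower, but 3 with the block and the trends removed and 1 with the trends alone. In the whole family 0 were called lower, 7 with the block and trends removed, 2 with the trends alone, and 0 to 1 without 1 library.

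Of the signalling partners 0 were called higher, 1 with DESeq2, 3 with the replicate block, 2 with the block and the authors' factors, 8 with the block and trends removed and 3 with the trends alone. Called lower were 0 partners, 2 with the block with or without the authors' factors and with the trends alone, 8 with the block and trends removed, and 0 to 1 without 1 library. Of the other receptor tyrosine kinases 1 was called, 3 with DESeq2, 5 with the block with or without the authors' factors, 15 with the block and trends removed, 8 with the trends alone, and 1 to 5 without 1 library. Of the WNT targets 2 were called, 6 with the block, 5 with the block and the authors' factors, 8 with the block and trends removed, 7 with the trends alone, and 0 to 4 without 1 library.

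The sign turned for EPHA1 (0.07) with the authors' factors (-0.18), these with the block (-0.17), and the trends removed with the block (-0.067) and without it (-0.066), and without 1 library it lay between -0.14 (NT library 1) and 0.23. It turned for EPHA4 (0.33) with the authors' factors (-0.20) and these with the block (-0.17). It turned for EPHB4 (0.13) with the trends removed with (-0.021) and without the block (-0.024), and without 1 library it lay between -0.043 (NT library 1) and 0.24. For EPHB2 (-0.12) that range was -0.29 to 0.035 (NT library 2). It turned for EFNA3 (0.04) with the trends removed with and without the block (-0.19 both) and without NT library 1 or OXA library 2 (-0.04), with a range of -0.13 to 0.20 without 1 library, and for EFNA5 (0.16) without OXA library 3 (-0.12, range to 0.33). The cause was not tested.

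In the order of levels in NT, 7 of 10 genes kept their rank with longest or canonical transcript lengths, where EPHA1 and EFNA1 came above EFNB1, and 8 of 10 in OXA with canonical lengths, where EPHB4 came above EFNB2. Without 1 library the difference in the log2 ratio lay between -0.97 and -0.64 for EFNA1 over EPHA2, -1.34 and -1.15 for EFNA4 over EPHA2, 1.11 and 1.23 for EFNB1 over EPHB2, 0.25 and 0.45 for EFNB1 over EPHB3, -1.07 and -0.50 for EFNB2 over EPHB3, and -0.39 and -0.09 for EFNB2 over EPHB4. It lay on both sides of 0 for EFNA1 over EPHA1 (-0.0001 to 0.32), EFNA1 over EPHA4 (-0.22 to 0.15, and 0.46 with the authors' values) and EFNB2 over EPHB2 (-0.14 to 0.16). The difference in the share of EPHA2 lay between 15.4 and 17.4 percentage points under all 9 alternatives and that of EFNB1 between 8.20 and 10.2. The share of EPHB3 turned without NT library 1 (-0.222 percentage points, range to 0.316). Of the summed levels per kb, that of the receptors other than EPHA2 turned without NT library 1 or OXA library 2 (range -1.91 to 4.07), that of all ligands without NT library 1 (-0.919 to 7.37), and that of the ligands other than EFNB1 without NT library 2 (-5.87 to 0.864).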
